A study of Mus musculus with 16 samples.

Results

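CCL2, CCL7, CCL8, CCL11 and CCL17 encode secreted CC chemokines that attract monocytes, eosinophils and T cells. Members were the genes of a whole-genome expression table whose symbol equals 1 of these 5 names. The table held 4 of the 5, among 20 CC chemokine genes and 18132 genes in all, and CCL8 was not analysed here. The names were chosen with earlier results from the same 16 arrays known, so the values that follow are a description of these arrays, and the p-values place each gene within the fit of the whole table without being independent support.

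The cells were fibroblasts in primary culture, from inguinal mammary glands of female 129S6 mice aged 8 to 10 weeks, either wild type (MEKK1+/+) or deficient in the kinase MEKK1 (MEKK1-/-). They were kept in DMEM with serum as control, or given the same medium harvested from cultures of MDA-MB231, a human breast tumor cell line (treated cells, given tumor-conditioned medium), for 8 h. RNA was read on Illumina Mouse 8 arrays, with 4 culture replicates in each of the 4 groups. The study names 3 mice per genotype without naming the mouse behind each culture, so at least 1 mouse gave more than 1 culture of a group, and p-values measure the spread between cultures. The fibroblasts were a fraction left after fat and an epithelial pellet were removed, and were not sorted. The question put to these arrays was which secreted factors of mammary fibroblasts answer to tumor medium and depend on MEKK1.

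CC chemokines are small secreted proteins that bind G protein-coupled receptors on leukocytes and set the direction in which those cells migrate. CCL2 (also called MCP-1) draws monocytes through CCR2, and CCL7 (MCP-3) acts through CCR2 and also through CCR1 and CCR3. CCL11 (eotaxin) recruits eosinophils through CCR3, and CCL17 (TARC) recruits T helper 2 cells through CCR4. In breast tissue, CCL2 made by stromal and tumor cells is known for bringing monocytes into tumors, and eotaxin for the eosinophils of the developing gland.

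In the RefSeq annotation of GRCm38.p6, Ccl2, Ccl7, Ccl11, Ccl12, Ccl8 and Ccl1 followed each other on chromosome 11, with no other coding gene between them. Ccl17 lay apart on chromosome 8, directly after Cx3cl1, the gene of fractalkine. The promoter of Ccl17, the gene that passed the threshold with tumor-conditioned medium in MEKK1+/+ cells, was the one analysed. The sequence is from RefSeq, GRCm38.p6, chr8:94810203-94810502 on the plus strand, from 250 bases before to 50 bases after the transcription start, with 2 motif matches in capitals. Promoters of Ccl2, Ccl7 and Ccl11 were not analysed here.
Ccl17 promoter: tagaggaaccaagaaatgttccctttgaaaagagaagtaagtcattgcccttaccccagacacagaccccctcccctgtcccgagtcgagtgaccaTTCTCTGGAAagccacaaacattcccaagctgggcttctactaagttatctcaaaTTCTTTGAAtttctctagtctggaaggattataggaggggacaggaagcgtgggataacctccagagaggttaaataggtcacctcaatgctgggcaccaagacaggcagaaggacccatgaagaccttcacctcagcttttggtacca

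The first capitals, TTCTCTGGAA, begin 154 bases before the start and match TTCNNNNGAA, the spacing bound by STAT6, which mediates signals from interleukin 4 and interleukin 13. This motif was in 6.98% of 32544 RefSeq promoters of the same length. The second, TTCTTTGAA, begins 99 bases before the start and matches TTCNNNGAA, the spacing of other STAT proteins, which was in 8.33% of promoters. Neither match overlaps the other. Both strands were searched, and the AP-1 letters TGANTCA had 0 matches in this window, against 7.79% of all promoters. The NF-kB consensus, in 8.49% of promoters, had 0 as well. A match of letters is a description and not a measured binding site.

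All values below are normalized log2 intensities, on which a difference of 1 is a doubling. They compare 1 gene between arrays and not the level of 1 gene with that of another. To judge which genes stood above the array's floor, each array was given the 99th percentile of its 1075 olfactory receptor genes, which a fibroblast is not known to use and which lay between 7.20 and 7.34. Of all genes, 6923 (38.2%) were above this level on all 16 arrays. CCL2, CCL7 and CCL11 were above it on all 16 arrays and CCL17 on 15 of 16.

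Several facts about the arrays touch every result. MAP3K1, the gene of MEKK1, was not lower in the arrays labelled MEKK1-/-: in control cells its mean was 8.24 in those arrays against 7.71 in MEKK1+/+, a difference of 0.53 (SE 0.15, limma adjusted p = 0.466), and in treated cells 8.07 against 7.74, so a genotype here is that of the label. The probe's place relative to the deleted sequence is not given in the sources used here. The 4 arrays numbered 2 stood apart: each correlated more closely, over all genes, with the same-treatment arrays of the other genotype than with its own group (in control cells, 0.991 against 0.985 for MEKK1+/+ and 0.991 against 0.986 for MEKK1-/-). In treated cells these values were 0.989 against 0.985 and 0.989 against 0.987, and the other 12 arrays were closer to their own group. Whether the cultures numbered 2 were exchanged between the genotypes or came from another preparation was not tested, and it bears on every genotype difference given here. AIF1, a macrophage marker near the floor, read 7.31 to 7.79 on MEKK1+/+ arrays and 6.92 to 7.15 on MEKK1-/- arrays. It was above the olfactory receptor level on all 8 MEKK1+/+ arrays and on 0 of the 8 MEKK1-/- arrays, number 2 included. On the arrays numbered 2, the sum of 20 macrophage markers went the other way. It was 34506 in MEKK1+/+ and 71413 in MEKK1-/- control cells, and 29350 and 62172 in treated cells. Of the 13 fibroblast markers in the table, 12 were above the level on every array. Of 20 macrophage markers, 11 were too, while PTPRC, the pan-leukocyte marker CD45, was at or below the level on all 16. Because these arrays read bulk RNA, fewer cells of a type and less RNA per cell cannot be told apart.

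CCL2, the main monocyte attractant, was high in every culture given tumor-conditioned medium and varied widely in control cells. In MEKK1+/+ control cultures the values of replicates 1 to 4 were 13.73, 10.97, 13.49 and 14.03 (mean 13.06 ± 1.41, SD, n = 4). With conditioned medium they were 14.17, 13.80, 14.12 and 14.19 (14.07 ± 0.18). Replicate 2 alone was low in the control group, and 1 control array lay within the range of the treated arrays, so the groups overlapped.

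In MEKK1-/- control cultures CCL2 was 10.60, 13.54, 11.36 and 11.88 (11.85 ± 1.25, SD, n = 4). With conditioned medium it was 14.02, 14.08, 14.05 and 14.12 (14.07 ± 0.045). All 4 treated arrays lay above all 4 control arrays, and replicate 2 was the high one among the controls. The spread on the normalized scale collapsed alongside: CCL2 differed 7.68-fold between the lowest and highest MEKK1-/- control array and 1.08-fold between the treated arrays. As deposited, the treated arrays ran from 13526 to 19493, a wider range.

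On the deposited linear scale, CCL2 ranged from 2535 to 18483 in MEKK1+/+ control cells and from 14051 to 16808 with conditioned medium. It ranged from 1158 to 13531 in MEKK1-/- control cells and from 13526 to 19493 with conditioned medium, so these ranges met on this scale. The brightest gene of an array read between 37313 and 52477, and CCL2 read below that range on every array. Whether the scanner compresses values at the level of CCL2 was not tested.

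**Figure D1:**
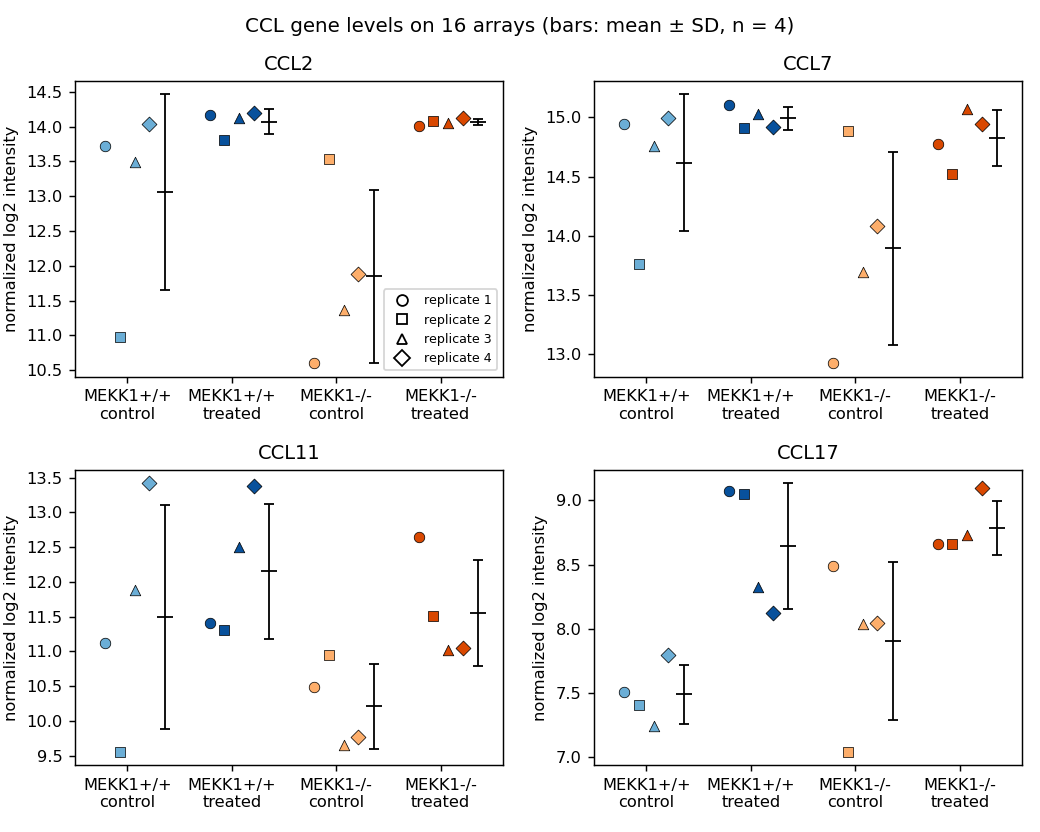
Normalized log2 intensity of CCL2, CCL7, CCL11 and CCL17 (vertical axes) in the 4 groups of 4 arrays; each marker is 1 array, its shape gives the replicate number, and bars are the mean and SD. CCL2 and CCL7 spread widely in control cells and closely in treated cells. In control cells the arrays numbered 2 are the lowest MEKK1+/+ and the highest MEKK1-/- values of CCL2, CCL7 and CCL11.

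Only the MEKK1-/- response of CCL2 passed the threshold. There CCL2 rose by 2.22 with conditioned medium (4.65-fold, SE 0.60, 95% interval 0.94 to 3.49, limma adjusted p = 0.0469). In MEKK1+/+ cells the difference was 1.02 (SE 0.60, interval -0.26 to 2.29, adjusted p = 0.446). The MEKK1-/- call was lost when any 1 array of the comparison other than control replicate 2 was left out (adjusted p = 0.0692 to 0.134), with values as deposited (2.22, adjusted p = 0.181) and with some other settings. Without all 4 arrays numbered 2 the difference was 2.78 (adjusted p = 0.000227) in MEKK1-/- cells and 0.41 (adjusted p = 0.521) in MEKK1+/+ cells. That exclusion was chosen after seeing the data, so its p-values are no support.

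CCL7, the neighbour of CCL2 and a ligand of CCR2 as well, read near the top of the arrays' intensity scale. MEKK1+/+ control cultures read 14.94, 13.76, 14.76 and 15.00 (14.62 ± 0.58, SD, n = 4), and treated cultures 15.11, 14.91, 15.03 and 14.92 (14.99 ± 0.095). MEKK1-/- control cultures read 12.92, 14.88, 13.69 and 14.08 (13.90 ± 0.82), and treated cultures 14.78, 14.52, 15.07 and 14.94 (14.83 ± 0.24). As for CCL2, replicate 2 was the low array of MEKK1+/+ control cells and the high array of MEKK1-/- control cells, and treated and control arrays overlapped in both genotypes.

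The treated minus control difference of CCL7 was 0.38 in MEKK1+/+ cells (SE 0.33, interval -0.32 to 1.08, adjusted p = 0.672) and 0.93 in MEKK1-/- cells (SE 0.33, interval 0.23 to 1.63, adjusted p = 0.139). Neither passed the threshold, although the MEKK1-/- difference did without control replicate 2 (1.26, adjusted p = 0.0215). Without all 4 arrays numbered 2, an exclusion chosen after seeing the data, the MEKK1-/- difference was 1.36 (adjusted p = 0.00748) and the MEKK1+/+ difference 0.12 (adjusted p = 0.902). CCL7 reached 40513 on the deposited scale, close to the array maxima, and whether the scanner compresses values there was not tested. Of the 7 CC chemokines that exceeded the olfactory receptor level on all 16 arrays, 5 were lowest on replicate 2 among MEKK1+/+ controls and 6 were highest on replicate 2 among MEKK1-/- controls. Of all genes above that level on every array, 21.9% and 24.0% were.

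CCL11, the eosinophil attractant, had the widest spread of the 4 genes in MEKK1+/+ control cells. These read 11.12, 9.55, 11.89 and 13.42 (11.50 ± 1.61, SD, n = 4), a 14.6-fold range, and with conditioned medium they read 11.41, 11.31, 12.50 and 13.38 (12.15 ± 0.98). Replicate 4 was the highest and replicate 2 the lowest array in both conditions. The control and treated ranges overlapped over most of their length.

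In MEKK1-/- control cultures CCL11 was 10.49, 10.94, 9.65 and 9.77 (10.21 ± 0.61, SD, n = 4), and with conditioned medium 12.65, 11.51, 11.02 and 11.04 (11.55 ± 0.76). Replicate 2 was the highest of the controls. On the normalized scale every treated array lay above every control array, while the deposited values overlapped. The difference was 1.34 (SE 0.67, interval -0.09 to 2.77, adjusted p = 0.353), against 0.65 in MEKK1+/+ cells (SE 0.67, interval -0.78 to 2.09, adjusted p = 0.735). The MEKK1+/+ value depended on single arrays, and was 0.0065 without control replicate 2, 1.30 without control replicate 4 and 0.25 without treated replicate 4. With the replicate number as a block within each genotype, the MEKK1-/- difference kept its size and passed the threshold (SE 0.28, adjusted p = 0.0173).

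CCL17, the T helper 2 attractant, lay near the floor in control cells. MEKK1+/+ control cultures read 7.51, 7.41, 7.25 and 7.80 (7.49 ± 0.23, SD, n = 4), and with conditioned medium 9.08, 9.05, 8.33 and 8.13 (8.65 ± 0.49). On the normalized scale all treated arrays lay above all controls. CCL17 rose by 1.15 in MEKK1+/+ cells (2.23-fold, SE 0.27, interval 0.58 to 1.73, adjusted p = 0.0217).

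MEKK1-/- control cultures read 8.49, 7.04, 8.04 and 8.04 (7.90 ± 0.61, SD, n = 4), where replicate 2 was the 1 array of 16 below the olfactory receptor level. With conditioned medium they read 8.66, 8.66, 8.73 and 9.10 (8.79 ± 0.21), again above every control array. The difference was 0.88 (SE 0.27, interval 0.31 to 1.46, adjusted p = 0.0809) and did not pass the threshold. It did without MEKK1-/- control replicate 1 (1.08, adjusted p = 0.0373), among genes above the median level (adjusted p = 0.0453) and by the methods' test on z-scores (adjusted p = 0.0403). Without all 4 arrays numbered 2, CCL17 differed by 0.99 in MEKK1+/+ cells (adjusted p = 0.0512) and by 0.64 in MEKK1-/- cells (adjusted p = 0.197). The MEKK1+/+ call was also lost with values as deposited (0.87, adjusted p = 0.0671) and without control replicate 2, control replicate 3, treated replicate 1 or treated replicate 2 (adjusted p = 0.0605, 0.0721, 0.0626 and 0.0619). On the deposited scale CCL17 ranged from 142 to 553, and treated and control arrays overlapped in both genotypes.

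**Figure D2:**
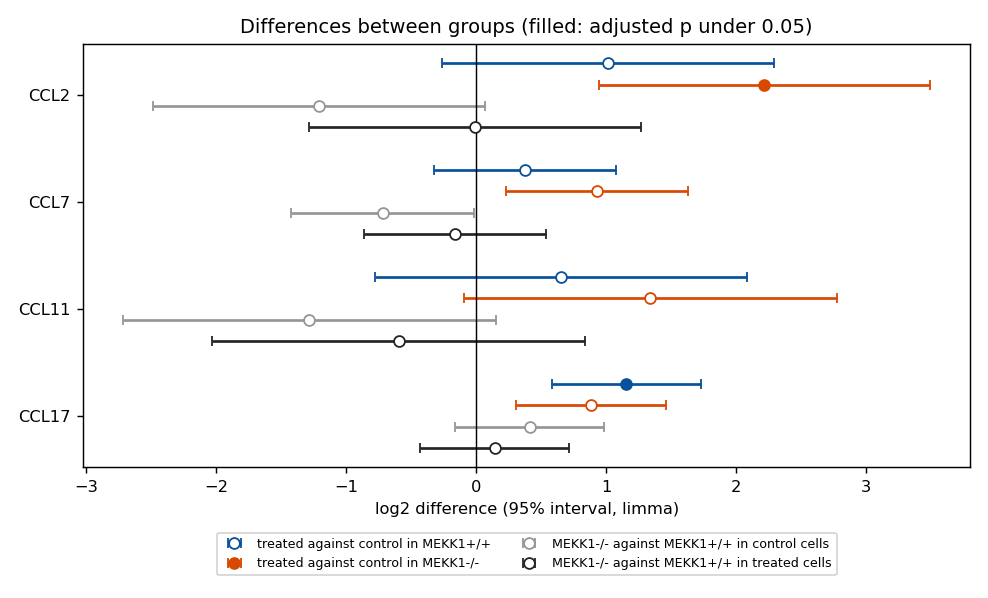
Log2 difference (horizontal axis) with its 95% interval from limma for each gene in the 4 comparisons of groups; filled points passed an adjusted p of 0.05 over all 18132 genes. Of 16 points, those of CCL17 with conditioned medium in MEKK1+/+ cells and of CCL2 with conditioned medium in MEKK1-/- cells are filled, and the intervals of the remaining points reach further than 1 log2 unit from end to end.

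Counted together, limma called 1 of the 4 genes higher with conditioned medium in MEKK1+/+ cells, against 2.27% of all genes, and 1 of 4 higher in MEKK1-/- cells, against 2.18%. In either direction it called 5.01% and 4.69% of all genes. All 4 differences were above 0 in both genotypes, where 49.3% and 48.2% of all genes were. On the normalized scale, treated arrays did not overlap controls, and were higher, for 1 gene (CCL17) in MEKK1+/+ cells, against 4.68% of all genes. In MEKK1-/- cells this held for 3 genes (CCL2, CCL11 and CCL17), against 4.9%. As deposited, the arrays overlapped for each of these genes. In MEKK1-/- cells the lowest treated and highest control values were 13526 and 13531 for CCL2, 1948 and 2252 for CCL11, and 286 and 294 for CCL17. Those of CCL17 in MEKK1+/+ cells were 228 and 241. The median of the 4 differences was 0.84 in MEKK1+/+ and 1.14 in MEKK1-/- cells, beside a median of all genes of 0.00 in both. The methods' test, on z-scores of log values as deposited, called 1 member and 1916 of 18132 genes in MEKK1+/+ cells. In MEKK1-/- cells it called 3 members and 2047 genes.

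Differences between arrays of the same number were taken as a description. The deviations of same-number control and treated arrays from their group means correlated at 0.505, 0.403, 0.219 and 0.251 in MEKK1-/-. In MEKK1+/+ the correlations were -0.0379, 0.485, 0.12 and 0.576. Arrays of unlike number were not compared, so whether a shared number means a shared culture was not tested in either genotype. For CCL2, treated minus control was 3.42, 0.54, 2.69 and 2.24 in MEKK1-/- cultures 1 to 4, and 0.45, 2.83, 0.63 and 0.16 in MEKK1+/+ cultures. The small value of the first genotype and the large value of the second both belonged to number 2. CCL17 was higher with conditioned medium in all 8 same-number comparisons, by 0.33 to 1.64 in MEKK1+/+ and by 0.17 to 1.62 in MEKK1-/- cells. CCL11 was higher in all 4 MEKK1-/- comparisons (0.56 to 2.16) and in 3 of 4 MEKK1+/+ comparisons, the exception being -0.05. CCL7 had 1 negative value in each genotype, -0.08 in MEKK1+/+ and -0.36 in MEKK1-/-.

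**Figure D3:**
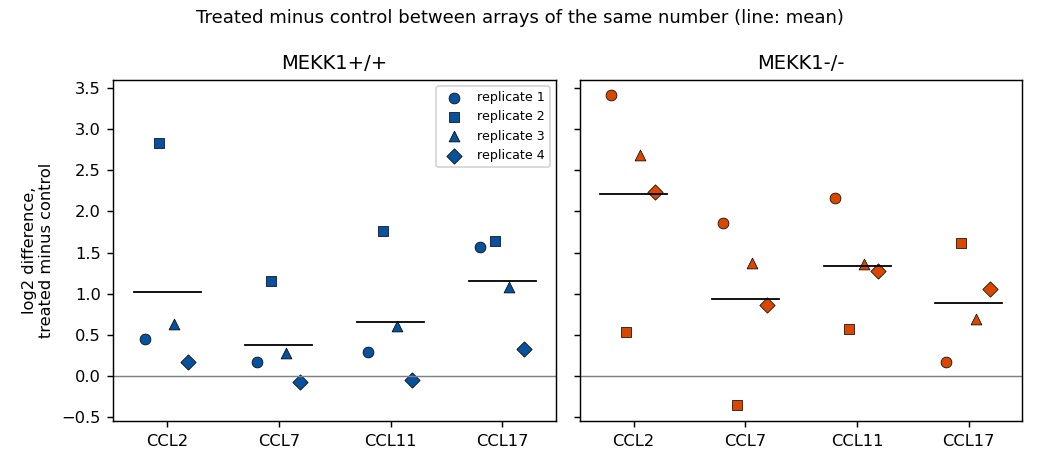
Treated minus control, in log2 units (vertical axis), between arrays of the same replicate number for each gene, with MEKK1+/+ and MEKK1-/- in separate panels; lines are means. A shared number was not shown to mean a shared culture in either genotype. For CCL2 the array pair numbered 2 is the highest of the MEKK1+/+ pairs (2.83) and the lowest of the MEKK1-/- pairs (0.54).

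Between genotypes, CCL2, CCL7 and CCL11 had lower means in MEKK1-/- control cells and CCL17 a higher one, and none passed the threshold. The control differences, MEKK1-/- minus MEKK1+/+, were -1.21 for CCL2 (SE 0.60, interval -2.49 to 0.07, adjusted p = 0.553), -0.72 for CCL7 (interval -1.42 to -0.02, adjusted p = 0.534), -1.28 for CCL11 (interval -2.72 to 0.15, adjusted p = 0.570) and 0.41 for CCL17 (interval -0.16 to 0.99, adjusted p = 0.643). The arrays of the genotypes overlapped for all 4 members, against 4.61% of all genes with no overlap. Limma called 0 of the 4, as it called 0 of all genes (0%). With no adjustment, p was under 0.05 for 1 member (CCL7) and for 1680 genes (9.27%). The methods' test on z-scores called 0 members and 817 genes.

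For CCL2 and CCL7, whether these control differences were called turned on the arrays numbered 2. Without all 4 of those arrays, CCL2 was lower by a log2 difference of -2.47 (adjusted p = 0.000511) and CCL7 by -1.33 (adjusted p = 0.0108), while CCL11 differed by -2.17 (adjusted p = 0.114) and CCL17 by 0.67 (adjusted p = 0.190). This exclusion was chosen after seeing the data and removes the control arrays that ran against their group, so its p-values are no support. Leaving out only the MEKK1-/- or only the MEKK1+/+ control replicate 2 gave no call for CCL2 (limma adjusted p = 0.2215 and 0.2024) or CCL7 (0.1799 and 0.2609). Other arrays moved the sizes too: without MEKK1+/+ control replicate 4 the CCL11 difference was -0.64, and without MEKK1-/- control replicate 1 those of CCL2, CCL7 and CCL17 were -0.79, -0.40 and 0.22.

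In treated cells, the genotypes were close for CCL2 and CCL7. The differences were -0.01 for CCL2 (interval -1.28 to 1.27, adjusted p = 0.998), -0.17 for CCL7 (interval -0.87 to 0.54, adjusted p = 0.911), -0.60 for CCL11 (interval -2.03 to 0.84, adjusted p = 0.834) and 0.14 for CCL17 (interval -0.43 to 0.72, adjusted p = 0.905). The intervals of CCL2 and CCL11 reached beyond 1 log2 unit, in both directions for CCL2 and downward for CCL11, so a p above the threshold does not show equal levels. The arrays overlapped for all 4 members, against 4.17% of all genes with no overlap. Limma called 0 of 4 members, against 0.00552% of all genes (1 gene). With no adjustment, p was under 0.05 for 0 members and for 1466 genes (8.09%), and the test on z-scores called 0 members and 460 genes.

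The difference between the genotypes' responses to tumor-conditioned medium (the interaction) was 1.20 for CCL2 (SE 0.85, interval -0.60 to 3.01), 0.56 for CCL7 (SE 0.47, interval -0.44 to 1.55), 0.69 for CCL11 (SE 0.95, interval -1.34 to 2.71) and -0.27 for CCL17 (SE 0.38, interval -1.08 to 0.54), each with an adjusted p of 1.00. Limma called 0 members and 0% of all genes. With no adjustment, p was under 0.05 for 0 members and for 473 genes (2.61%), and the test on z-scores called 0 members and 20 genes. For CCL2 the interaction was 2.46 without both control arrays numbered 2 (adjusted p = 0.0268) and 2.37 without all 4 arrays numbered 2 (adjusted p = 0.152). A larger CCL2 response in MEKK1-/- than in MEKK1+/+ cells thus passed the threshold in 1 alternative fit, chosen after seeing the data. It did not pass in the main fit or in the 26 other alternatives. With 1 array left out, its limma adjusted p was at least 0.9997.

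In order of mean level, CCL2 ran from both treated groups (14.07 each) to MEKK1+/+ control (13.06) and MEKK1-/- control (11.85), and CCL7 from MEKK1+/+ treated (14.99) through MEKK1-/- treated (14.83) and MEKK1+/+ control (14.62) to MEKK1-/- control (13.90). CCL11 ran from MEKK1+/+ treated (12.15) through MEKK1-/- treated (11.55) and MEKK1+/+ control (11.50) to MEKK1-/- control (10.21). CCL17 alone had MEKK1-/- cells on top in both conditions, from MEKK1-/- treated (8.79) through MEKK1+/+ treated (8.65) and MEKK1-/- control (7.90) to MEKK1+/+ control (7.49). In all 4 orders the arrays of neighbouring groups overlapped, so no neighbours were set apart by more than the spread of their cultures.

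Macrophages make CCL2 and CCL7 too, so their markers stand beside these results. The sum of the 20 macrophage markers, in normalized linear intensity, ran from 34506 to 88043 in MEKK1+/+ control arrays, 29350 to 81607 in MEKK1+/+ treated, 14461 to 71413 in MEKK1-/- control and 15148 to 62172 in MEKK1-/- treated. EMR1, a gene that marks mouse macrophages, was above the olfactory receptor level on all 4 arrays of 3 groups and on 3 of 4 MEKK1-/- control arrays, and CSF1R on all 16. Replicate 2 had the lowest sum in both MEKK1+/+ groups and the highest in both MEKK1-/- groups, the pattern CCL2, CCL7 and CCL11 had in control cells. The median macrophage marker differed between genotypes by -0.84 in control cells and -0.88 in treated cells, and by -0.04 and -0.02 between treated and control cells of MEKK1+/+ and MEKK1-/-. Between genotypes 17 of 20 markers had lower means in MEKK1-/- control cells and 18 of 20 in MEKK1-/- treated cells. Limma called 0 of 20 in any comparison, while 10 of 20 in control and 8 of 20 in treated cells had an unadjusted p under 0.05 between genotypes, against 9.27% and 8.09% of all genes. In MEKK1-/- treated arrays, normalized CCL2 stayed within 14.02 to 14.12 (13526 to 19493 as deposited) while the sum varied from 15148 to 62172. The part of such cells in the control differences was not tested.

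**Figure D4:**
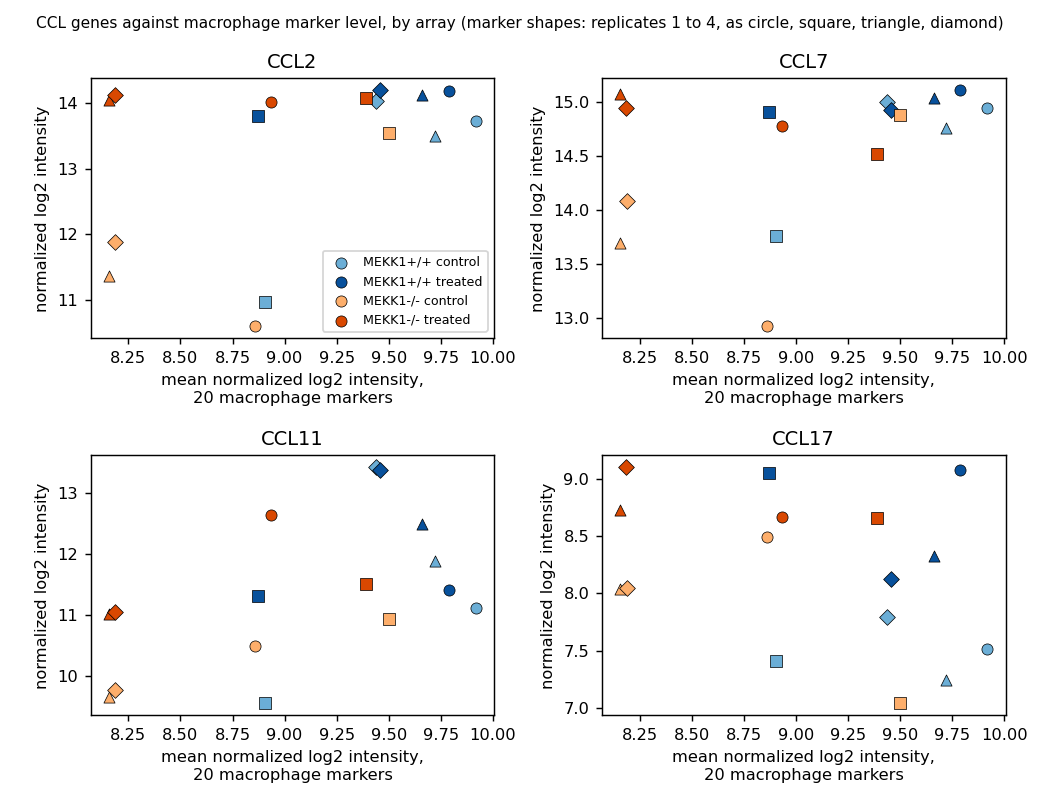
Level of each CCL gene (vertical axes) against the mean of 20 macrophage markers (horizontal axes), both in normalized log2 intensity, 1 marker per array, with group by colour and replicate by shape. The 4 control arrays with CCL2 above 13 lie between 9.44 and 9.92 on the horizontal axis and the other 4 control arrays between 8.16 and 8.91, while the 4 MEKK1-/- treated arrays, with CCL2 within 14.02 to 14.12, lie between 8.16 and 9.39.

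Markers of other cell types were summed in the same way. Epithelial markers (9 genes) summed to 1169 to 1359 in MEKK1+/+ arrays and reached 11522 and 10401 on replicate 1 of the MEKK1-/- control and treated groups, where KRT18, a luminal keratin, read 10.41 and 10.20. CCL11 was highest among MEKK1-/- treated arrays on that replicate (12.65), and CCL2 and CCL7 lowest among MEKK1-/- control arrays (10.60 and 12.92). Its part in those values was not tested. Dendritic cells are a known source of CCL17. The 12 dendritic markers summed to 1645 to 2085 and 1570 to 2062 in MEKK1+/+ and MEKK1-/- control cells, and to 1924 to 2494 and 1730 to 2460 with conditioned medium. Of the 12, 2 were above the olfactory receptor level on all 16 arrays and 7 on none, ITGAX, FLT3 and CD83 among the 7. With conditioned medium, 7 of the 12 had higher means and 5 lower in MEKK1+/+ cells (median difference 0.01). In MEKK1-/- cells 10 were higher and 2 lower (median 0.05). In MEKK1+/+ cells, where CCL17 was called, ZBTB46, a transcription factor of classical dendritic cells, had means of 7.18 in control and 7.47 in treated arrays, with no overlap (difference 0.28, limma adjusted p = 0.137). H2-AB1, a class II antigen presentation gene, differed by 0.52 there (adjusted p = 0.263). Limma called 0 of the 12 in any comparison, with 2 at an unadjusted p under 0.05 in MEKK1+/+ and 1 in MEKK1-/- treated against control cells. The part of such cells in the CCL17 values was not tested. The 8 endothelial markers summed to 2079 and 2047 on the same replicate 1 of the MEKK1-/- control and treated groups and to between 1038 and 1350 on the other 14 arrays. In MEKK1-/- control cells 7 of these 8 had higher means than in MEKK1+/+, 3 at an unadjusted p under 0.05 and 0 called by limma. Over all arrays, the 8 lymphocyte markers summed to between 1020 and 1180 and the 7 fat cell markers to between 4048 and 14206.

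Genes whose pattern over the 16 arrays was most like a member's were found by Pearson's r across arrays. The search was limited to the 6923 genes that cleared the olfactory receptor level throughout, so a gene nearer the floor could not be returned. The r values are a description, since the arrays share groups and cultures. CCL2 ran closest to CXCL1 (r = 0.973), a neutrophil attractant, then to the locus LOC100044702 (0.960) and to SOD2 (0.952), the mitochondrial superoxide dismutase. CCL7 ran closest to CCL2 (0.951) and then to MOCS1 (0.927). CXCL1 had the same outlying arrays as CCL2: it read 13.96, 9.44, 13.69 and 15.18 in MEKK1+/+ control cells and 10.43, 13.76, 10.11 and 10.24 in MEKK1-/- control cells. With conditioned medium it rose by 4.03 in MEKK1-/- cells (adjusted p = 0.0276), and the MEKK1+/+ difference was 1.92 (adjusted p = 0.349). Number 2 was again the low array of one genotype and the high array of the other.

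CCL11 ran closest to SMPDL3B (0.923), MMP3 (0.920), which encodes stromelysin-1, and LOC547343 (0.917). CCL17 ran closest to CX3CL1 (0.900), its chromosomal neighbour, then to C330023M02RIK (0.874) and MRPL13 (0.867). Fractalkine, the product of CX3CL1, is a membrane-bound chemokine that is shed as a monocyte attractant. CX3CL1 rose with conditioned medium by 1.95 in MEKK1+/+ cells (adjusted p = 0.00107) and by 1.72 in MEKK1-/- cells (adjusted p = 0.00233), with no overlap of arrays in either genotype. Among the members, CCL11 followed CCL2 (0.738) and CCL7 (0.629), while CCL17 had r of 0.283, 0.136 and 0.101 with CCL2, CCL7 and CCL11.

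**Figure D5:**
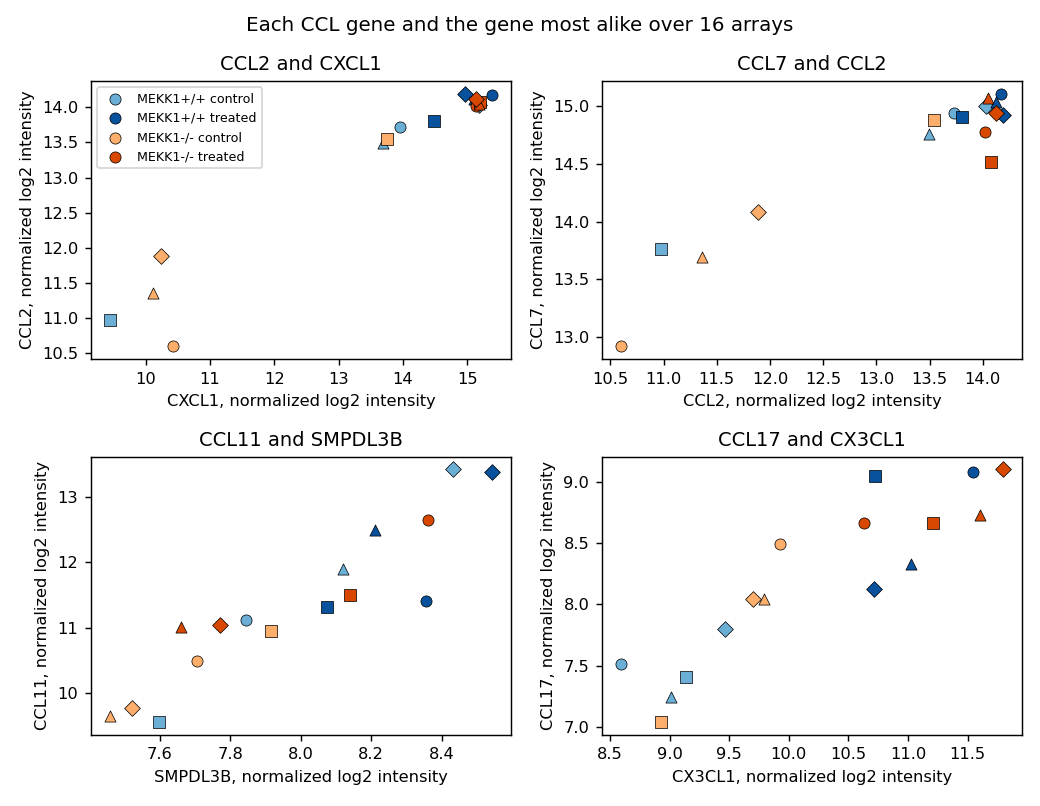
Each CCL gene (vertical axes) against the searched gene with the highest Pearson's r to it over 16 arrays (horizontal axes), both in normalized log2 intensity, 1 marker per array, coloured by group and shaped by replicate. Only genes that cleared the olfactory receptor level throughout were searched. CCL2 runs with CXCL1 (r = 0.973), CCL7 with CCL2 (0.951), CCL11 with SMPDL3B (0.923) and CCL17 with CX3CL1 (0.900).

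Receptor and decoy receptor genes of CC chemokines, those of the members among them, were counted as a list and were mostly near the floor in the fibroblasts. The receptor and decoy receptor genes above the olfactory receptor level on 0 arrays were these 9: CCR1, CCR2, CCR3, CCR4, CCR8, CCR10, CCRL1, DARC and CCBP2. CCRL2, an atypical receptor, was above it on all 16 (7.36 to 7.90). Limma called 0 of these genes in any of the 5 tests, and 0 also at an unadjusted p under 0.05.

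Among the other 16 CC chemokines, 4 were above the level on every array and 8 on none. CCL5, which acts on CCR1 and CCR3 among others, rose with conditioned medium by 2.62 in MEKK1+/+ cells (6.14-fold, adjusted p = 0.00812) and by 2.54 in MEKK1-/- cells (5.81-fold, adjusted p = 0.0101). CCL19, a ligand of CCR7, rose by 0.46 in MEKK1+/+ cells (adjusted p = 0.00921), near the floor. It was above the level on 0 MEKK1+/+ control arrays and read 7.29 to 7.55 on treated arrays. Its deposited values overlapped (110 to 147 in control and 128 to 173 in treated cells). So 2 of 16 were called in MEKK1+/+ and 1 of 16 in MEKK1-/- cells, with medians of 0.02 and 0.13. Between genotypes limma called 0 of 16 in either condition, with 4 at an unadjusted p under 0.05 in each. CCL24 and CCL26, which bind CCR3 as CCL11 does, and CCL22, which binds CCR4 as CCL17 does, were above the level on 0 arrays. CCL9, a CCR1 ligand, had means of 11.26 and 12.09 in MEKK1+/+ control and treated cells and 10.09 and 10.74 in MEKK1-/- control and treated cells, with 0 calls.

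NF-kB is the transcription factor family best known for switching on CCL2, and its pathway and feedback genes were counted as a list of 20, of which 15 were above the level on every array. With conditioned medium, 2 of the 20 rose in MEKK1+/+ cells, 6 rose in MEKK1-/- cells and 0 fell. NFKB2, a subunit of the family, rose by 0.93 (adjusted p = 0.0113) and 1.28 (adjusted p = 0.00152), and IKBKE, a kinase of the pathway, by 0.51 (adjusted p = 0.0242) and 0.66 (adjusted p = 0.00551). In MEKK1-/- cells the feedback inhibitors NFKBIA and TNIP1 rose by 1.89 and 1.26 (adjusted p = 0.0442 and 0.0431). The atypical IkB proteins NFKBIZ and BCL3 rose there by 2.02 and 0.88 (adjusted p = 0.0173 and 0.0469). The median differences of the list were 0.33 and 0.43, beside 0.00 for all genes. The counts of 2 and 6 do not show that the genotypes differ, since limma's interaction called 0 of the 20, with 1 at an unadjusted p under 0.05.

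Interleukin 4 and interleukin 13, through STAT6, are known inducers of CCL11 and CCL17. Of 21 type 2 cytokine and STAT6 pathway genes in the table, 10 were above the level on every array and 6 on none. TSLP, an epithelial and stromal cytokine that promotes type 2 responses, rose with conditioned medium by 0.78 in MEKK1+/+ cells (adjusted p = 0.0152) and by 0.89 in MEKK1-/- cells (adjusted p = 0.00673). IL13RA1, a receptor chain of interleukin 13, rose by 0.68 (adjusted p = 0.0260) and the kinase TYK2 by 0.35 (adjusted p = 0.0432) in MEKK1+/+ cells. STAT6 itself fell by 0.23 in MEKK1-/- cells (adjusted p = 0.0279). So 3 of 21 rose in MEKK1+/+ cells, 1 rose and 1 fell in MEKK1-/- cells, and the list medians were 0.03 and 0.08.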

How the data were processed

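The authors deposited normalized intensity values on a linear scale, 1 per gene symbol and array, for 16 arrays. The normalization, background treatment and probe combination are not given in the sources used here, and unnormalized values were not used here. Array medians ran from 114 to 170.1, within-group correlations of log2 values from 0.979 to 0.996, and 0 columns were identical. Log2 values were quantile normalized between arrays and the 4 groups fitted together with limma 3.58.1 in R 4.3.3 (lmFit, eBayes, 12 residual degrees of freedom), with Benjamini-Hochberg adjustment over 18132 genes and a threshold of 0.05. The number of arrays limits precision. The fit was tested on simulated data. Groups and replicate numbers came from the labels. Likeness to a member was searched only among the 6923 genes that cleared the olfactory receptor level throughout. Members and gene lists were chosen with earlier results of these data known. Named genes are the members, the 3 searched genes most like each, and called genes of the lists. Some items that these rules name are not reported here. RefSeq names, promoters and gene order are of GRCm38.p6, and no coordinates of the arrays' probes were used. Deviations of same-number control and treated arrays correlated at 0.505, 0.403, 0.219 and 0.251 in MEKK1-/- and at -0.0379, 0.485, 0.12 and 0.576 in MEKK1+/+. Arrays of unlike number were not compared, so the pairing of cultures by number was not tested. Alternatives were other scalings and filters, z-scores, replicate blocks, leaving out each array and, chosen after seeing the data, leaving out the arrays numbered 2.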

Additional observations from a re-analysis of the deposited data

Results flagged for a closer look

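CCL17 in MEKK1-/- treated replicate 4 read 9.10, while the other 3 arrays of that group lay between 8.66 and 8.73. Its gap to the nearest array was 0.846 of the group's whole range, above Dixon's critical value of 0.829 for 4 values. Of 16 groups of 4 values tested in this way for the 4 genes, 1 exceeded the critical value, and chance gives about 1 in 20.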

How the results depend on the processing

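The number of the 4 genes called with conditioned medium in MEKK1-/- cells was 1 in the report, 0 with arrays scaled to the same median, with values as deposited, with a pseudocount of 16, with eBayes trend and robust options and with the replicate number as a block, 2 among genes above the median level, with the replicate block within genotype, and without either both control arrays or all 4 arrays numbered 2, 3 by the methods' test on z-scores, and 0 to 2 when 1 array was left out. The replicate block took the adjusted p of CCL2 there to 0.0807. In MEKK1+/+ cells the count of 1 became 0 with values as deposited and without all 4 arrays numbered 2, and 0 to 1 when 1 array was left out. Between genotypes in control cells it went from 0 to 2 without both control arrays numbered 2 and without all 4, and for the interaction from 0 to 1 without both control arrays numbered 2. The cause of these changes was not tested. Signs turned for 3 genotype differences in treated cells, all near 0: CCL17 (-0.0142 with the same median, -0.0302 to 0.286 leaving out 1 array), CCL2 (0.13 as deposited, 0.119 on z-scores, by limma and by the methods' test, -0.0975 to 0.0322 leaving out 1 array) and CCL7 (0.0393 on z-scores by both tests). Values as deposited moved the median gene by -0.284 with conditioned medium in MEKK1+/+ cells and by 0.279 between genotypes in treated cells. CCL17 lay near the arrays' floor in control cells, which limits its fold changes.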

Other observations

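Proteases that can trim CC chemokines were counted as a list of 16 genes, 12 of which exceeded the olfactory receptor level on all 16 arrays. MMP9, gelatinase B, rose with conditioned medium by 2.57 in MEKK1+/+ cells (limma adjusted p = 0.0309) and by 3.31 in MEKK1-/- cells (adjusted p = 0.00772), and MMP13, a collagenase, rose by 1.45 in MEKK1-/- cells (adjusted p = 0.0331). No gene of this list was called lower. Of 11 glucocorticoid and RNA decay regulators, PER1 rose by 0.75 (adjusted p = 0.0152) and TSC22D3 fell by 0.56 (adjusted p = 0.0451) in MEKK1+/+ cells. In MEKK1-/- cells ZC3H12A, an RNase that degrades cytokine transcripts, rose by 1.97 (adjusted p = 0.0101), and ZFP36, which marks such transcripts for decay, fell by 0.79 (adjusted p = 0.00164). Between genotypes limma called 0 genes of both lists in either condition. In the fibroblast list PDGFRA was called higher with conditioned medium in both genotypes, and in the lymphocyte list LCK was called higher in MEKK1-/- cells.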
